A study of Arabidopsis thaliana with 33 samples.

Results

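The comparison described here set Arabidopsis thaliana wild type (Col-0) hypocotyl explants cultured for 8 days on shoot induction medium (SIM) in high light against the same kind of explants in low light. It comprised 6 of the 33 RNA-seq libraries of the study, 3 per light, and was chosen by the genotype, medium, day and light named in the labels and not by any measured value. The study, whose replicates it describes as biological, asked how light signals that act through HY5 bear on shoot regeneration, and it sampled Col-0 and the hy5-2 mutant in 11 groups of 3 libraries at the time of excision, after 4 days on callus induction medium (CIM), and after 4 and 8 days on SIM. All seedlings were grown for 7 days at 22 °C in continuous low light of 2 µmol per m2 per s, and the excised hypocotyls then spent 4 days on CIM, which held 2,4-D at 0.5 mg/L together with kinetin at 0.1 mg/L, before they moved to SIM, which held IAA at 0.15 mg/L together with 2-iPA at 0.5 mg/L. Seeds had received several hours of high light for germination. The low-light groups stayed at 2 µmol per m2 per s and the high-light groups were kept at 40 µmol per m2 per s. In culture, hy5-2 was sampled in high light only, and its levels at 8 days on SIM are given beside those of Col-0 without a test. The explants were whole pieces of organ, so a lower level can come from fewer cells of a type or from less RNA per cell, and these cannot be told apart.

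HY5 is a bZIP transcription factor that accumulates in light, when the ubiquitin ligase COP1 and its SPA partners no longer direct it to degradation, and it binds promoters that hold the ACGT core of elements such as the G-box. Its known targets include flavonoid genes, photosynthesis genes and its own homologue HYH. On SIM, a high ratio of cytokinin to auxin turns parts of a callus that resembles a root primordium into shoot meristems, a change in which WUS and STM act in the stem cell region.

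Total counts were 8023567, 12481991 and 8493875 in low light replicates 1, 2 and 3 and 7975083, 9716867 and 9146793 in high light replicates 1, 2 and 3. Levels are CPM, counts scaled to a library of 1000000 with the trimmed mean of M values (TMM), always listed for replicates 1, 2 and 3 in that order, and they are not corrected for gene length. Replicates of a group correlated at r = 0.985 to 0.991 over log2 CPM, and the first principal component, with 69.2% of the variance of the 6 libraries, separated the lights. Differences were tested with edgeR's quasi-likelihood test over 20842 loci, with Benjamini-Hochberg adjusted p-values and a threshold of 0.05. Log2 fold changes are high light minus low light, with approximate standard errors (SE). Each SE was derived from the test, as the absolute log2 fold change divided by the square root of its F statistic. It is unreliable for genes near 0 counts. In the libraries of both lights, markers of xylem, phloem, shoot meristem and root-type callus were detected, whereas stomatal genes were at or near 0: EPF1, EPF2 and STOMAGEN had no count, and SPCH averaged 0.0648 CPM at the low and 0.107 CPM at the high intensity. Summed marker levels moved with the lights, from 1360 to 1420 CPM in low light to 1670 to 2010 CPM in high light for 25 xylem genes, from 1790 to 1970 CPM to 2170 to 2300 CPM for 29 shoot meristem and boundary genes, and from 1880 to 2040 CPM to 2230 to 2330 CPM for 27 leaf polarity and growth genes. Phloem sums went from 2180 to 2320 CPM to 2360 to 2480 CPM and epidermal and stomatal sums from 112 to 145 CPM to 192 to 261 CPM, while root hair sums went from 118 to 197 CPM down to 99.3 to 112 CPM. Sums overlapped between the lights for root meristem and callus genes, at 978 to 1050 against 840 to 1150 CPM, and for endodermis genes, at 175 to 200 against 176 to 217 CPM. Their part in the other results was not tested.

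After 8 days on SIM, 3332 genes were higher in high light (16.0% of those tested) and 2416 were lower (11.6%), while 7672 had an unadjusted p under 0.05. Large changes were mostly rises, since 1284 of the higher genes differed at least 2-fold against 396 of the lower ones. Of the genes with a symbol, a mean of 5 CPM or more and no overlap between the lights that passed, the largest rises were those of ELIP1, ALDH11A3 and TT4, and the largest falls those of FTM1, ALMT1 and BGLU22. Across 43 lists of pathway and cell type genes, 325 of 778 members tested rose and 126 fell. Counts of list members below are to be read beside the 16.0% and 11.6% of all genes tested that rose and fell. No list was tested against these shares. The plot of all list members shows the lists ordered by their median, from the Calvin cycle genes at 3.76 to the low oxygen genes at -0.88 on the log2 scale, where the median over all genes tested was -0.01.

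**Figure D1:**
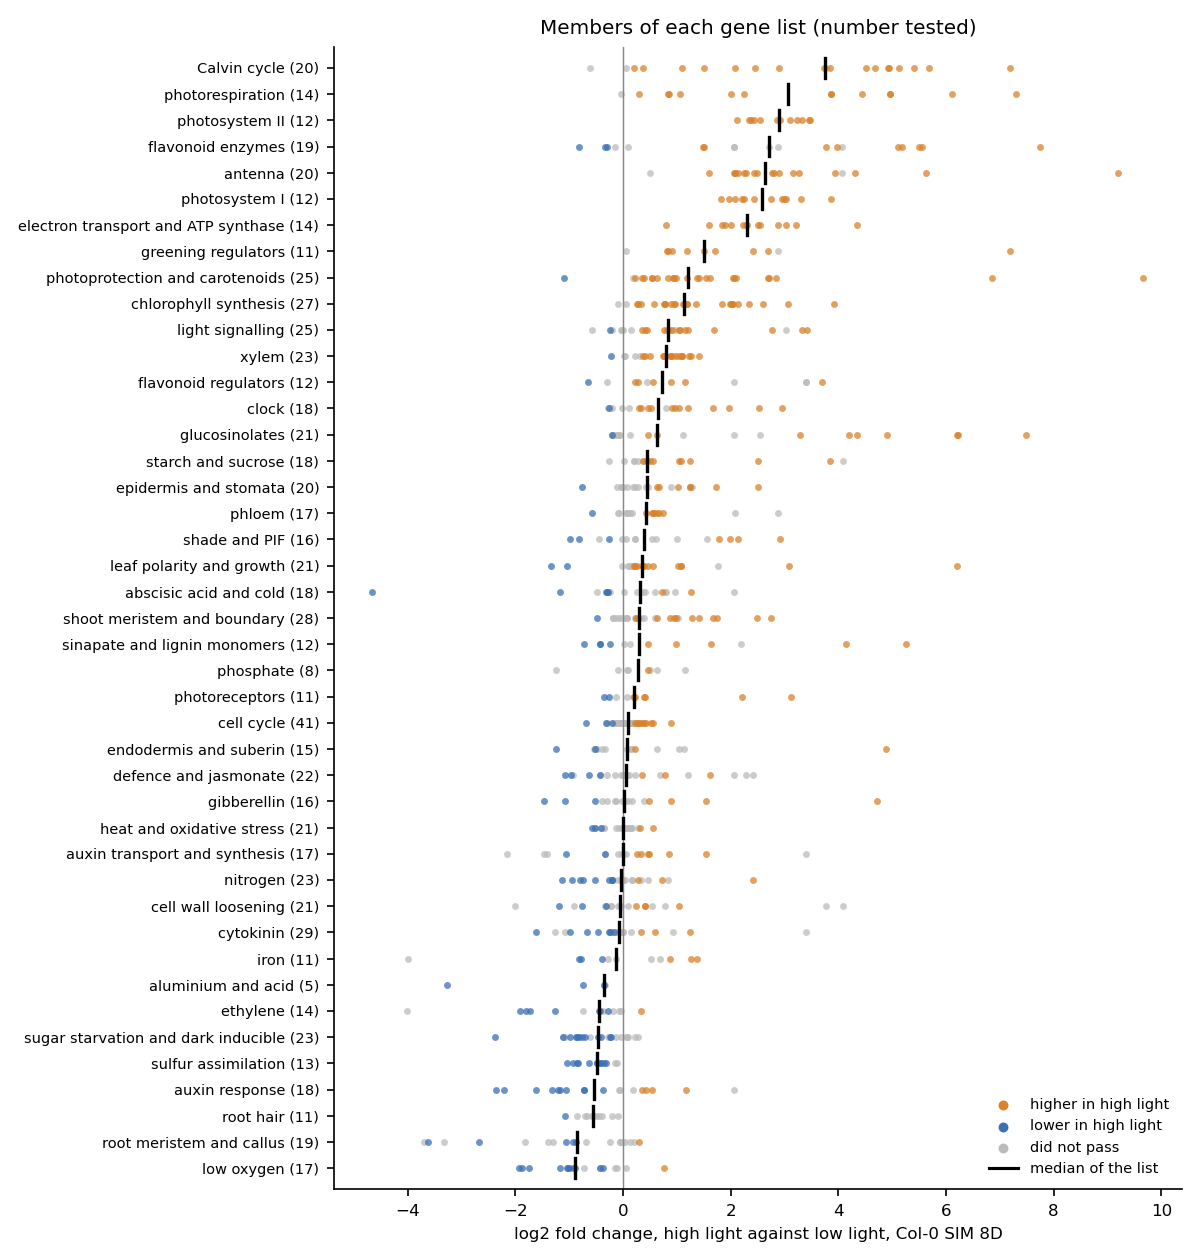
Each point is a gene of a list (y axis, with the number tested) at its log2 fold change in high against low light in Col-0 at SIM 8D (x axis). Colours show whether it passed the test, and black bars are list medians. The photosynthesis, photorespiration and flavonoid enzyme lists lie farthest to the right, and the low oxygen list, with a median of -0.88, farthest to the left.

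Most promoters of genes in either direction lack the G-box, as the shares below show. The promoters of 4 genes that hold its letters are shown first as examples, of which 3 rose (ELIP1, MYB12 and the flavonoid gene CHIL) and 1 fell (GH3.2). Each is the 200 bases upstream of the gene start in RefSeq's annotation of TAIR10.1, on the strand of the gene, 5′ to 3′, and lies at chr3:8085670-8085869 on the minus strand for ELIP1, chr2:19476126-19476325 on the plus strand for MYB12, chr5:1563086-1563285 on the plus strand for CHIL and chr4:17579418-17579617 on the plus strand for GH3.2. Capitals mark the G-box (CACGTG), the I-box (GATAAG, read on either strand) and the evening element (AAAATATCT).
ELIP1: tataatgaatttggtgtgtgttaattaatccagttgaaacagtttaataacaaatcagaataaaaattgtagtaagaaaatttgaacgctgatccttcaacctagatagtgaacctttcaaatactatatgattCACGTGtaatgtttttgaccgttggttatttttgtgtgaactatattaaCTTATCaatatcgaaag
MYB12: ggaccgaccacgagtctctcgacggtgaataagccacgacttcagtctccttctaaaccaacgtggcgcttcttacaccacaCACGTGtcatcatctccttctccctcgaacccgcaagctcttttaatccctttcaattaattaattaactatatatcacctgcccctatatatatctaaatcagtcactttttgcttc
CHIL: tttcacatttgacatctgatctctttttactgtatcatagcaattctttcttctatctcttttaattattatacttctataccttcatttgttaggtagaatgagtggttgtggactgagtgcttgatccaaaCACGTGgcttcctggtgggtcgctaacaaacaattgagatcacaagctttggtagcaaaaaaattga
GH3.2: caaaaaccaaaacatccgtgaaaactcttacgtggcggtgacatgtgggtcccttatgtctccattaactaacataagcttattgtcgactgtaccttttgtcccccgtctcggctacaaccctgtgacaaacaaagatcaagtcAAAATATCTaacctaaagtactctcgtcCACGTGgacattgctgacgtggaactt
RefSeq starts lie 109, 11, 34 and 39 bases upstream of the starts in the counted annotation for ELIP1, MYB12, CHIL and GH3.2. Over 20757 genes the 5′ ends of both annotations were the same for 20.3% and more than 50 bases apart for 57.4%, so the windows rest on RefSeq's choice of start. The G-box stood in genes of both directions, and the I-box of ELIP1 is read on the opposite strand. Over 250 bases upstream, the G-box was found on either strand in 8.21% of 1279 promoters of genes that rose at least 2-fold (95% exact interval 6.76 to 9.85%), in 7.61% of 394 promoters of genes that fell at least 2-fold (5.2 to 10.7%) and in 7.09% of the promoters of 20756 tested genes. The I-box was found in 16.6% (14.6 to 18.7%), 11.7% (8.68 to 15.3%) and 12.2% of these promoters, and the evening element in 3.21% (2.31 to 4.32%), 2.03% (0.881 to 3.96%) and 2.42%. The motifs share no overlapping letters in the promoters printed. These shares describe letters in a window and were not tested.

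Genes of light signalling formed the first group. Of 25 tested, 15 rose and 1 fell, or 3 without high light replicate 1, with a median of 0.84. HY5 measured 18.5, 16.4 and 16.9 CPM in low light and 41.8, 30.3 and 35.1 CPM in high light, and all high-light libraries lay above the low-light ones (log2 fold change 1.05, SE 0.14, adjusted p = 6.55e-07). Its homologue HYH (AT3G17609, TAIR10 chromosome 3, 6023866 to 6024698) measured 3.75, 3.63 and 4.61 CPM against 29.6, 25.1 and 27.1 CPM, again without overlap (2.78, SE 0.20, adjusted p = 7.08e-13). In hy5-2 in high light, HYH stood at 0.622, 0.328 and 0.294 CPM, below the low-light Col-0 libraries. Genes that restrain light responses rose with them: SPA1, a COP1 partner, went from 58.0, 49.3 and 59.1 to 95, 105 and 110 CPM (log2 fold change 0.91), and RUP2, which resets the UV-B receptor, rose by 1.05. BBX22 and BBX24, B-box proteins that respectively promote and restrain HY5 activity, rose by 1.15 and 0.84. Of 11 photoreceptor genes, 6 rose and 2 fell. CRY3, a cryptochrome family member of organelles, rose most, from 2.3, 1.66 and 1.27 to 15.8, 13 and 16.8 CPM (3.13, SE 0.26, adjusted p = 2.57e-11). The blue light receptor gene PHOT1 rose by 2.22, CRY1 by 0.42 and PHYB by 0.40, whereas PHYA, which encodes the light-labile phytochrome, fell by 0.35 on the log2 scale.

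The explants had been in continuous light throughout, and most clock genes differed between the lights. Of 18 tested, 12 rose and 1 fell, with a median of 0.66. LHY, a morning-phased MYB factor, measured 47.0, 47.6 and 52.2 CPM in low light and 122, 102 and 117 CPM in high light (1.22, SE 0.14, adjusted p = 1.68e-07), and 25.2, 23.5 and 19.9 CPM in hy5-2, so the mutant libraries in high light lay below both Col-0 groups. RVE8, an activator of evening genes, went from 6.53, 7.03 and 8.76 to 28.9, 27.3 and 31.1 CPM (1.97, SE 0.15). ELF4, of the evening complex, rose by 1.67 and FKF1, a blue light receptor of the flowering pathway, by 2.53. The gene that fell, LUX (AT3G46640), did so by 0.26 on the log2 scale, and without single libraries (low light replicate 1 or 3, high light replicate 1 or 2) its change of -0.17 to -0.28 had adjusted p-values of 0.0674 to 0.26. The light effect on LHY was larger at 8 than at 4 days on SIM by 0.94 (adjusted p = 8.05e-03).

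The flavonol branch of phenylpropanoid synthesis was near 0 in low light and clearly expressed in high light. In contrast, 3 genes of the flavonoid enzyme list, C4H among them, and several genes of lignin monomers were lower. Summed levels of that list were 2370 to 2600 CPM in low light and 2290 to 2340 CPM in high light. Of 19 flavonoid enzyme genes tested, 9 rose and 3 fell, with a median of 2.72. TT4, which encodes chalcone synthase, the first committed enzyme (AT5G13930, TAIR10 chromosome 5, 4488688 to 4490264), measured 1.21, 0.948 and 0.922 CPM in low light and 227, 204 and 230 CPM in high light (7.75, SE 0.30, adjusted p = 3.16e-15). In hy5-2 it measured 1.07, 0.655 and 0.294 CPM in the same high light. F3H, flavanone hydroxylase, rose by 5.50, and both loci overlap a neighbouring gene, whose reads could be counted with theirs. FLS1, flavonol synthase, measured 1.09, 0.553 and 0.461 CPM against 33.6, 28.3 and 34.7 CPM (5.55, SE 0.25, adjusted p = 1.79e-17). TT5, chalcone isomerase, rose by 5.12 and CHIL, an isomerase-like enhancer of the pathway, by 5.19. At these genes the hy5-2 libraries lay at the low-light level. Separation of the Col-0 lights was a condition for naming the largest rises and falls, so it adds no support.

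The branch to anthocyanin did not follow. DFR, dihydroflavonol reductase, had counts in 1 of the 6 libraries (0.208 CPM, high light replicate 3), and LDOX, anthocyanidin synthase, in 2 (0.0993 and 0.415 CPM, high light replicates 2 and 3), and neither passed the test. The regulators showed the same division. MYB12, the activator of flavonol genes, measured 0.242, 0.632 and 0.576 CPM in low light, against 8.38, 5.36 and 6.54 CPM in high light and 0.267, 0.218 and 0.392 CPM in hy5-2 (3.70 between the Col-0 lights, SE 0.27, adjusted p = 1.11e-12). The anthocyanin regulator PAP1 averaged 0.0263 and 0.0405 CPM and was too low to test, and TT8 had no count. Of 12 flavonoid regulators tested, 6 rose and 1 fell. The one that fell was LBD39, a repressor of anthocyanin synthesis in nitrate-replete plants, by 0.65 on the log2 scale.

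Upstream of the flavonoid branch, C4H, cinnamate hydroxylase, measured 774, 818 and 762 CPM in low light and 367, 510 and 454 CPM in high light, and fell by 0.82 on the log2 scale (SE 0.07, adjusted p = 1.13e-10). In hy5-2 it stood at 836, 817 and 800 CPM. CCoAOMT1, a methyltransferase of lignin monomers, fell by 0.73 on the log2 scale, HCT by 0.43 and CYP98A3, whose locus overlaps a neighbour, by 0.43. Sinapate ester genes went the other way within the same list of 12, of which 5 rose and 4 fell. UGT84A2, a sinapate glucosyltransferase, measured 0.605, 0.948 and 1.04 CPM against 16.4, 13 and 18.0 CPM (4.15, SE 0.20, adjusted p = 4.25e-17). SNG1, which makes sinapoylmalate, had 1 count in low light and 48 in high light, a ratio of 50.8 with a 95% exact interval from counting of 8.7 to 2050. The list's median was 0.30.

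**Figure D2:**
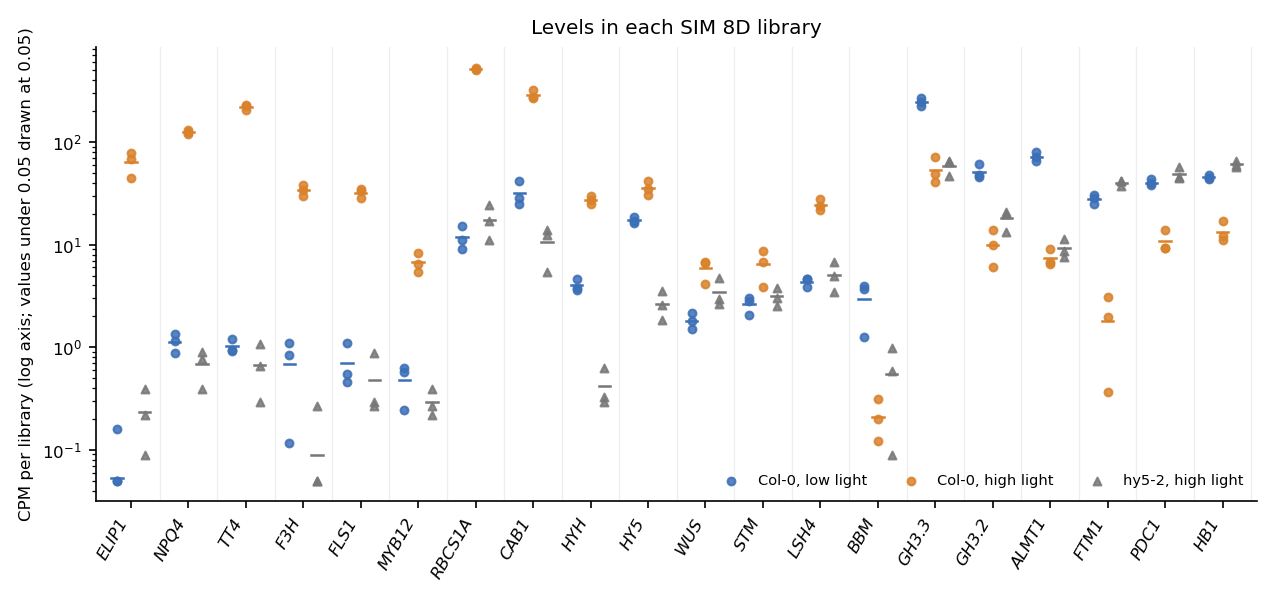
Levels in CPM (y axis, log scale, values under 0.05 drawn at 0.05) of 20 genes in each library at SIM 8D, with 3 libraries of Col-0 in low light, Col-0 in high light and hy5-2 in high light. Horizontal marks are group means. TT4, F3H, FLS1 and MYB12 of hy5-2 lie at or below the low-light Col-0 points, while GH3.2, GH3.3 and ALMT1 of hy5-2 lie nearer to the high-light Col-0 points.

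Photosynthesis genes encoded in the nucleus rose nearly throughout. Of the antenna genes 17 of 20 tested rose (median 2.63), of photosystem I 12 of 12 (2.59), of photosystem II 12 of 12 (2.89), of electron transport and ATP synthase 14 of 14 (2.3) and of the Calvin cycle 17 of 20 (3.76), and no tested member of these lists fell. RBCS1A, a small subunit of Rubisco (AT1G67090, TAIR10 chromosome 1, 25048158 to 25049424), measured 11, 15.3 and 9.11 CPM in low light and 512, 506 and 532 CPM in high light (5.42, SE 0.45, adjusted p = 1.23e-09), and 24.6, 16.9 and 11.1 CPM in hy5-2. RBCS3B had 3 counts in low light and 462 in high light, a ratio of 163 (95% exact interval 55.5 to 794). The RBCS copies share sequence, and reads may have been divided among them. PRK, phosphoribulokinase, measured 2.06, 2.29 and 1.38 CPM against 70.3, 51.6 and 61.0 CPM (4.95, SE 0.39, adjusted p = 3.96e-10), and the plastid aldolase FBA1 rose by 4.52. PGK1, an abundant phosphoglycerate kinase, rose less, from 109, 115 and 104 to 244, 232 and 230 CPM (1.1, SE 0.07). The groups did not overlap at any of these genes, but the naming rule favours separated groups, so this adds no support.

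Among the light-harvesting genes, LHCB4.3, a minor antenna protein, measured 0.484, 1.03 and 0.922 CPM in low light and 16.1, 18.8 and 16.0 CPM in high light (4.32, SE 0.25, adjusted p = 5.40e-15). LHCA2, of the photosystem I antenna, went from 7.62, 12.4 and 8.65 to 70.4, 71.7 and 78.5 CPM (2.90) and stood at 3.2, 4.48 and 2.16 CPM in hy5-2, under the low-light Col-0 libraries. PSAE-1, a stromal subunit of photosystem I, rose by 3.86, and PSBO1, of the oxygen-evolving complex, by 2.54 from 37.4, 44.0 and 39.2 CPM. FD1, a leaf ferredoxin, rose by 2.88 and FNR2, its NADP reductase, by 4.34. All libraries in high light were above all libraries in low light at each of these genes, which the naming rule favours.

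Photorespiration, which recycles the product of Rubisco's oxygenase reaction, rose with carbon fixation: 13 of 14 genes tested were higher (median 3.06). HPR, peroxisomal hydroxypyruvate reductase, measured 0.363, 0.711 and 0.115 CPM in low light and 27.2, 28.5 and 37.1 CPM in high light (6.11, SE 0.44, adjusted p = 3.27e-11). GOX2, glycolate oxidase, rose by 4.44 from 0.847, 1.42 and 0.576 CPM, and GDCH, of the glycine decarboxylase complex, by 3.87. SHM1, mitochondrial serine hydroxymethyltransferase, went from 28.8, 33.5 and 29.7 to 122, 151 and 165 CPM (2.24), with 63.5, 58.6 and 52.0 CPM in hy5-2, between the lights of Col-0. PGLP1 had no count in any library and was not assessed.

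Chlorophyll synthesis rose in 25 of 27 genes tested, by a smaller median of 1.13. GUN5, the H subunit of magnesium chelatase, measured 25.6, 28.9 and 22.7 CPM in low light and 200, 211 and 238 CPM in high light (3.06, SE 0.20, adjusted p = 1.31e-11). GUN4, which activates that enzyme, rose by 3.93 from 1.45, 1.90 and 1.38 CPM. The light-dependent reductase genes PORB and PORC rose by 2.01 and 2.05, and PORA, the form of etiolated seedlings, averaged 0.0405 CPM in high light and had no count in low light. Among regulators of greening 9 of 11 rose (median 1.5). GLK2, a factor that drives chloroplast development, measured 1.81, 1.66 and 1.73 CPM against 5.10, 4.87 and 4.78 CPM (1.5, SE 0.21, adjusted p = 9.34e-07), and in hy5-2 3.82, 4.26 and 4.02 CPM, nearer to high-light Col-0. CGA1, a GATA factor induced by light and cytokinin, had no count in low light and 0.971, 1.79 and 2.08 CPM in high light, which is at least 16.2-fold higher against a floor of 3 counts over the low-light group, and it had none in hy5-2. GLK1 averaged 0.0384 and 0.0346 CPM and did not pass. SIG5, a plastid sigma factor that responds to blue light, rose by 2.42.

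Of the genes named by the rule, the largest rise was in photoprotection. ELIP1 (AT3G22840, TAIR10 chromosome 3, 8084447 to 8085560), an early light-inducible protein that binds pigments under excess light, measured 0, 0.158 and 0 CPM in low light and 68.7, 45.0 and 78.8 CPM in high light. The counts were 2 against 1778, a ratio of 941 with a 95% exact interval from counting of 260 to 7780 (adjusted p = 1.41e-15). In hy5-2 it measured 0.0889, 0.218 and 0.392 CPM. Its relative ELIP2 went from 1.9 ± 0.187 to 13.9 ± 3.02 CPM (mean ± SD, n = 3 each) and rose by 2.83 (SE 0.18). NPQ4 (AT1G44575, TAIR10 chromosome 1, 16871696 to 16873383), the PsbS protein that dissipates excess excitation as heat, measured 1.33, 0.869 and 1.15 CPM against 127, 121 and 132 CPM, a rise of 6.85 (SE 0.31, adjusted p = 5.18e-15), and 0.889, 0.764 and 0.392 CPM in hy5-2. PSY, phytoene synthase of the carotenoid pathway, rose by 2.06. Of 25 genes tested for photoprotection and carotenoids 23 rose, and 1, the superoxide dismutase CSD2, fell.

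Further large rises among genes that averaged at least 5 CPM included ALDH11A3, a cytosolic glyceraldehyde-3-phosphate dehydrogenase that makes NADPH, from 0.242, 0.158 and 0 to 59.2, 50.9 and 76.0 CPM (8.73, SE 0.52, adjusted p = 1.36e-12). MES16, an esterase that acts on chlorophyll breakdown products, rose by 6.37, ENH1, a plastid rubredoxin-like protein, by 5.97, and UMAMIT46, a member of a transporter family, by 5.64. The receptor-like kinase gene SNC4 and the resistance gene RPP4 rose by 5.93 and 5.58. RPP4 measured 0.968, 0.474 and 0.807 CPM in low light, against 32.4, 30.5 and 41.1 CPM in high light and 10.4, 7.53 and 5.98 CPM in hy5-2. It sits in a cluster of similar genes, so its count may hold reads of its relatives.

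Shoot genes were among those that differed. Of 28 shoot meristem and boundary genes tested, 12 rose and 1 fell (median 0.31), and of 21 leaf polarity and growth genes, 13 rose and 2 fell (median 0.36), with 8 that rose when low light replicate 3 was left out. WUS (AT2G17950, TAIR10 chromosome 2, 7808871 to 7810795), the homeodomain factor that maintains shoot stem cells, measured 1.81, 2.13 and 1.5 CPM in low light and 4.13, 6.85 and 6.65 CPM in high light (1.68, SE 0.35, adjusted p = 7.79e-04). STM, which keeps meristem cells undifferentiated, measured 3.02, 2.85 and 2.08 against 3.88, 6.75 and 8.73 CPM (1.29, SE 0.26, adjusted p = 2.69e-04). The groups did not overlap for either gene, and in hy5-2 WUS stood at 2.93, 2.62 and 4.71 CPM and STM at 3.02, 3.82 and 2.55 CPM.

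The boundary gene LSH4 measured 3.87, 4.58 and 4.61 CPM in low light and 28.2, 21.8 and 23.8 CPM in high light, and it rose by 2.48 (SE 0.23, adjusted p = 2.64e-10). Its hy5-2 libraries had 6.76, 4.91 and 3.43 CPM, close to low-light Col-0. CUC1, which sets organ boundaries, rose by 0.88, from 6.90, 8.46 and 5.76 to 10.6, 14.4 and 14.2 CPM. CUC2 measured 31.8, 27.6 and 25.1 against 39.5, 36.1 and 35.5 CPM without overlap but did not pass (0.40, SE 0.15, adjusted p = 0.0526), and it passed under some of the alternatives tried. CLV3, the stem cell peptide, was 2.3, 3.40 and 1.73 against 2.91, 4.47 and 4.05 CPM and overlapped (0.59, SE 0.30, adjusted p = 0.152). RPL, a homeodomain partner of the STM class, went from 20.2 ± 0.724 to 54.1 ± 4.16 CPM (mean ± SD, n = 3 each, log2 fold change 1.41, SE 0.10, adjusted p = 1.05e-12).

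In developing leaves, KAN3, a factor of the lower leaf side, rose by 1.08 and GRF2, which drives leaf cell proliferation, by 1.08 from 8.47, 10.7 and 10.8 CPM. AN3, a coactivator that works with GRF proteins, went the other way, from 39.0, 35.2 and 42.5 to 19.8, 19.3 and 17.6 CPM (-1.04, SE 0.18, adjusted p = 6.28e-05), with 25.9, 27.3 and 28.4 CPM in hy5-2. AFO (AT2G45190), an abaxial YABBY gene, measured 0.121, 0.316 and 0.115 against 2.06, 1.49 and 1.87 CPM (3.08, adjusted p = 0.0232), and without any single library but high light replicate 2 its adjusted p was 0.0533 to 0.0758. Of 20 epidermal and stomatal genes tested, 7 rose and 1 fell. PDF1, a marker of the outermost shoot layer, measured 1.45, 2.53 and 1.5 against 11.2, 6.95 and 15.1 CPM (2.52, SE 0.63, adjusted p = 3.59e-03), and the receptor kinase gene ERL2 rose by 1.74.

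**Figure D3:**
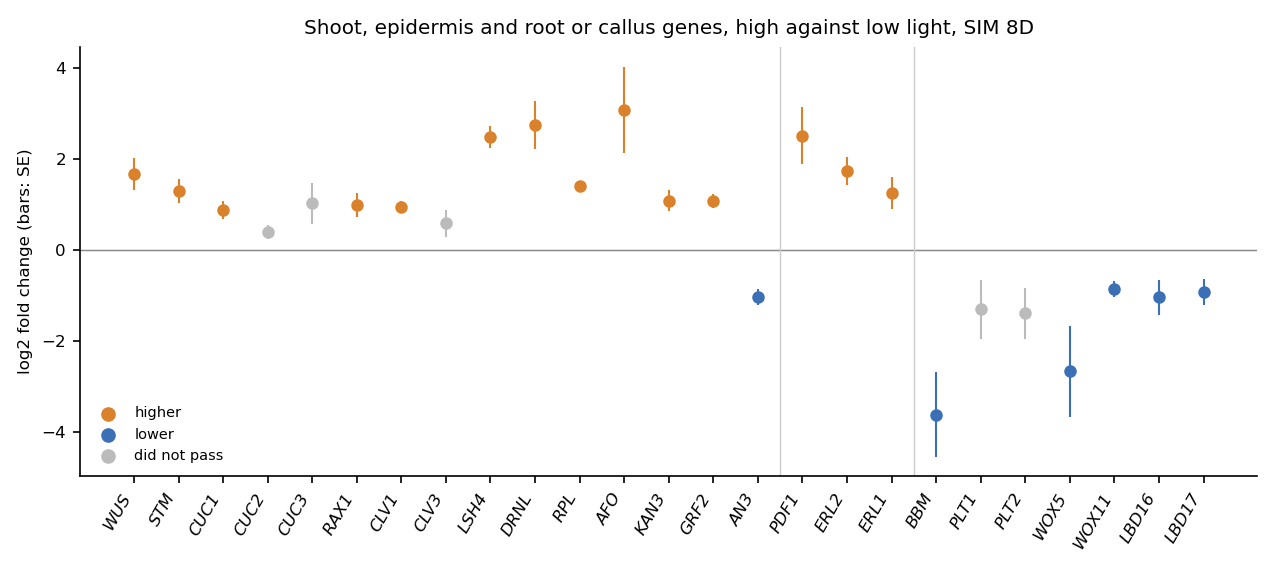
Log2 fold change in high against low light at SIM 8D (y axis, bars are SE) for 25 genes of shoot and leaf (left), epidermis (middle) and root meristem or callus (right). Coloured points passed the test and grey ones did not. The genes are a selection from the lists. The plotted shoot genes that passed lie above 0 except AN3 at -1.04, and the plotted root meristem and callus genes that passed lie below 0. In the full lists, AIL5 of the root meristem and callus genes rose. There, 1 shoot meristem and boundary gene fell, as did 2 leaf polarity and growth genes, AN3 among them.

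Of 19 root meristem and callus genes tested, 5 fell and 1, AIL5 (AT5G57390), rose by 0.29 (median -0.86). Without high light replicate 1 the rise of AIL5 was 0.20 and did not pass (adjusted p = 0.1). The count of falls dropped to 2 without low light replicate 3 or high light replicate 3 and to 3 without low light replicate 1 or high light replicate 2. BBM, an AP2 factor of root meristems and embryos, measured 3.99, 1.26 and 3.69 CPM in low light and 0.121, 0.199 and 0.312 CPM in high light (-3.62, SE 0.93, adjusted p = 4.64e-03). In hy5-2 in high light it was also low, at 0.0889, 0.983 and 0.588 CPM. WOX11, which starts callus and adventitious root founder cells, fell by 0.86 on the log2 scale, from 156, 149 and 151 to 112, 87.7 and 51.2 CPM, and that call was lost when the fit held the 6 SIM 8D libraries alone. WOX5 (AT3G11260), of the quiescent centre, had 22 counts in low light and 3 in high light, a ratio of 6.93 (95% exact interval 2.08 to 36.1, adjusted p = 0.0449), and without any 1 library its call was lost, at adjusted p-values of 0.0593 to 0.151. AIL6 measured 247 and 239 CPM on average and did not pass. Of 11 root hair genes tested, 10 did not pass.

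Xylem genes rose together, at 18 of 23 tested, with 1 that fell (median 0.80). VND7, the master switch of vessel differentiation, measured 4.24, 3.56 and 4.96 CPM in low light and 13.5, 9.73 and 10.3 CPM in high light (1.40, SE 0.16, adjusted p = 2.72e-08). XCP1, a vessel protease (AT4G35350, TAIR10 chromosome 4, 16810482 to 16812009), measured 67.3, 55.2 and 52.8 against 131, 117 and 126 CPM (1.1, SE 0.12, adjusted p = 3.53e-08). MYB46, which activates secondary wall synthesis, rose by 1.27, XCP2 by 1.08 and the cellulose synthase gene CESA4, whose locus overlaps a neighbour, by 0.90. In hy5-2, XCP1 stood at 102, 84 and 76.7 CPM, between the Col-0 lights. The member that fell, ACL5 (AT5G19530), makes thermospermine, which restrains xylem differentiation, and its change of -0.21 was -0.11 and no longer passed without high light replicate 3 (adjusted p = 0.212) nor, at -0.19, without low light replicate 1 (adjusted p = 0.0586). Of 17 phloem genes tested, 1 fell and 7 rose (median 0.43). The sieve element protein genes SEOR1 and SEOR2 rose by 0.63 and 0.75, while the companion cell sucrose transporter SUC2 measured 160 and 175 CPM on average and did not pass.

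Low oxygen genes were lower in high light. Of 17 tested, 11 fell and 1 rose (median -0.88). PDC1, pyruvate decarboxylase (AT4G33070, TAIR10 chromosome 4, 15952289 to 15954771), measured 39.6, 43.3 and 37.8 CPM in low light and 9.35, 14.0 and 9.24 CPM in high light (-1.88, SE 0.13, adjusted p = 2.87e-13). HB1, a haemoglobin that is induced by low oxygen, measured 44.3, 48.1 and 43.2 against 11.2, 17.1 and 12.1 CPM (-1.74, SE 0.13, adjusted p = 2.12e-12). In hy5-2 in the same high light, PDC1 stood at 56.9, 44.9 and 45.5 CPM and HB1 at 66.0, 56.5 and 60.3 CPM, above each low-light Col-0 library. SUS4 and SUS1, sucrose synthases of hypoxic tissue, fell by 1.94 and 1.04 on the log2 scale, and PCO2, which oxidises the oxygen-labile ERF factors, by 1.02. ADH1, alcohol dehydrogenase, fell by 1.17, with a locus that overlaps a neighbour. The exception was PDC2, a second pyruvate decarboxylase, which rose from 43.1, 48.3 and 45.3 to 73.3, 77.7 and 81.2 CPM (0.76, SE 0.07, adjusted p = 3.66e-10).

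Genes of sugar starvation also fell, at 12 of 23 tested, and none rose (median -0.46), with 7 that fell when low light replicate 3 was left out. GDH1, glutamate dehydrogenase, measured 148, 146 and 149 CPM in low light and 76.1, 78.8 and 70.1 CPM in high light (-0.98, SE 0.07, adjusted p = 2.04e-13), with 86.2, 83.1 and 81.6 CPM in hy5-2. GDH2 fell by 0.86 on the log2 scale, and the trehalose phosphate synthase family genes TPS9 and TPS11 by 0.82 and 0.86. The dark-inducible genes SEN1 and ASN1 averaged 0.443 and 2.79 CPM in low light and did not pass. Starch and sucrose genes rose at 10 of 18 and fell at none (median 0.45). ADG1, of ADP-glucose pyrophosphorylase, measured 89.7, 91.4 and 84.8 against 191, 173 and 199 CPM (1.08, SE 0.07, adjusted p = 2.71e-14), and GBSS1, granule-bound starch synthase, rose by 2.5.

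Sulfur assimilation fell at 11 of 13 genes tested, by a modest median of -0.47, and none rose. APR1, adenylylsulfate reductase, measured 194, 212 and 214 CPM in low light and 115, 132 and 154 CPM in high light (-0.63, SE 0.08, adjusted p = 9.79e-08). BGLU28, a glucosidase induced by sulfur limitation, went from 285, 268 and 256 CPM to 151, 144 and 154 CPM (-0.85), with 148, 152 and 150 CPM in hy5-2, and the sulfate transporter gene SULTR2;1 fell by 0.83 on the log2 scale. Nitrogen genes fell at 8 of 23 and rose at 3. NIA1, nitrate reductase, measured 570, 617 and 631 against 317, 362 and 362 CPM (-0.80, SE 0.07, adjusted p = 3.32e-11), and the nitrate transceptor gene NRT1.1 fell by 0.95 on the log2 scale. AMT1;2, an ammonium transporter, rose by 2.42 from 0.242, 0.474 and 0.692 CPM. Iron storage and uptake differed in direction: the ferritin genes FER3 and FER4 rose by 0.87 and 1.27, while OPT3, an iron transporter of the phloem, fell by 0.78 on the log2 scale.

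The aliphatic glucosinolate genes showed 1 library apart. Of 21 glucosinolate genes tested, 9 rose and 1 fell (median 0.64). MYB28 (AT5G61420), the activator of the aliphatic branch, measured 0, 0 and 0.461 CPM in low light and 0.850, 0.894 and 6.96 CPM in high light. Its log2 fold change of 4.34 had an SE of 1.22 (adjusted p = 9.09e-03), and without high light replicate 3 it was 2.6 (adjusted p = 0.197), and 3.59 without low light replicate 2 (adjusted p = 0.0559). BCAT4 and CYP79F1, enzymes of the same branch that were chosen after their values were seen, measured 0.121, 0.199 and 9.45 CPM and 0.485, 0.298 and 5.09 CPM in high light, so high light replicate 3 held most of their signal. The locus of BCAT4 overlaps a neighbour. Without that library 1 member of the list rose instead of 9, and without low light replicate 2 the count was 4. MYB34, of the indole branch, averaged 40.6 against 55.7 CPM and rose by 0.46.

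Auxin-responsive genes fell more often than they rose, at 10 of 18 tested against 4 (median -0.55). GH3.2 (AT4G37390, TAIR10 chromosome 4, 17579657 to 17582022), which conjugates auxin to amino acids, measured 61.0, 48.0 and 45.4 CPM in low light and 9.95, 13.8 and 6.03 CPM in high light (-2.36, SE 0.19, adjusted p = 1.85e-10). GH3.3 measured 247, 271 and 225 against 48.8, 71.9 and 40.4 CPM (-2.20, SE 0.20, adjusted p = 2.45e-09). In hy5-2 in high light, GH3.2 stood at 13.4 to 20.6 CPM and GH3.3 at 47.2, 65.0 and 63.9 CPM, far below low-light Col-0. The repressor genes IAA30, IAA19 and IAA2 fell by 1.2, 0.98 and 0.73 on the log2 scale, whereas MP, an auxin response factor of vascular and shoot patterning, rose by 0.35 and IAA7 by 1.18. TAA1, of auxin synthesis, rose by 1.55 from 0.847, 1.98 and 0.922 CPM, and PIN7, an auxin efflux carrier gene, fell by 0.33 on the log2 scale.

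Ethylene genes fell at 7 of 14 tested and rose at 1 (median -0.44). ACO1, an oxidase of ethylene synthesis, measured 45.2, 33 and 32.4 CPM in low light and 8.74, 11.4 and 8.73 CPM in high light (-1.92, SE 0.18, adjusted p = 7.56e-10), with 27.7, 27.9 and 36.2 CPM in hy5-2. ACS2, a synthase of the ethylene precursor, went from 105, 142 and 134 to 46.1, 65.7 and 47.1 CPM (-1.26), and ERF1, a response factor, from 12.7, 16.8 and 18.1 to 4.73, 5.96 and 3.64 CPM (-1.73). The groups were separate for all of these, which the naming rule favours. Of 29 cytokinin genes, 7 fell and 3 rose (median -0.08), where 11.6% of all genes tested fell and 16.0% rose. ARR3, a response regulator that cytokinin induces, fell by 1.61 on the log2 scale, from 29.2, 23.8 and 24.4 to 9.10, 11 and 5.09 CPM, while ARR16, of the same class, rose by 1.24. CKX3, a cytokinin oxidase, measured 639, 599 and 532 against 360, 333 and 198 CPM (-0.99, SE 0.15, adjusted p = 1.45e-05).

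Other hormone and stress lists were mixed. Over all genes tested 16.0% rose and 11.6% fell, and the counts of these lists were not tested against those shares. GA20OX3, of gibberellin synthesis, had 2 counts in low light and 58 in high light, a ratio of 30.7 (95% exact interval 8.13 to 260), and GA2OX6, which inactivates gibberellin, fell by 1.08 on the log2 scale. VSP2, a jasmonate-responsive acid phosphatase, measured 196, 240 and 258 CPM in low light and 840, 611 and 687 CPM in high light (1.62, SE 0.12, adjusted p = 2.30e-11), whereas JAZ1, a repressor that jasmonate induces, fell by 0.97. KIN2, of the cold response, rose by 1.27 and HAI1, a phosphatase that abscisic acid induces, fell by 1.17 on the log2 scale. In the shade and PIF list, 4 of 16 rose and 3 fell, or 1 without high light replicate 3. PIL1, a shade-induced gene, measured 0.847, 1.03 and 0.576 against 2.31, 3.38 and 5.40 CPM (2.14, SE 0.34), and PIF5 rose by 1.78, while ATHB2, another shade-induced gene, measured 7.56 and 8.77 CPM on average and did not pass. Of 41 cell cycle genes, 10 rose and 3 fell, or 1 without high light replicate 2 (median 0.09), with CDC20.1, of the mitotic checkpoint, at 46.8, 47.7 and 44.0 against 64.9, 65.2 and 70.1 CPM (0.53, SE 0.07, adjusted p = 1.56e-07) and the mitotic cyclin CYCB1;1 at 22.6, 20.4 and 21.4 against 22.3, 23.0 and 23.5 CPM, which did not pass.

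The largest falls among genes with symbols were led by FTM1 (AT1G43800, TAIR10 chromosome 1, 16577610 to 16579722), a fatty acid desaturase gene. It measured 28.6, 30.2 and 24.7 CPM in low light, against 0.364, 3.08 and 1.97 CPM in high light and 41.6, 37.3 and 41.6 CPM in hy5-2 (-3.88 between the Col-0 lights, SE 0.30, adjusted p = 1.48e-11). The high-light libraries of Col-0 lay below all others. ALMT1 (AT1G08430, TAIR10 chromosome 1, 2658716 to 2661029), a malate exporter of root tips known from aluminium tolerance, measured 80.5, 70.8 and 64.8 against 6.80, 9.13 and 6.44 CPM (-3.26, SE 0.14, adjusted p = 1.79e-17), with 7.64, 11.3 and 8.63 CPM in hy5-2. For ALMT1 the hy5-2 libraries thus lay with high-light Col-0, and for FTM1 above low-light Col-0. BGLU22, a glucosidase of endoplasmic reticulum bodies, fell by 2.91 on the log2 scale, the wall enzyme gene XTH11 by 2.54 and TRE1, trehalase, by 2.17. HCHIB, a basic chitinase, and bZIP70 fell by 2.37 and 2.52, and both loci overlap a neighbour. The desaturase gene ADS1 fell by 2.04, a call lost in at least 1 alternative.

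Light effects at earlier stages were measured in other libraries. In high light 9.09% of genes lay higher and 4.39% lay lower after 4 days on SIM, and after 4 days on CIM 5.14% and 3.14%. High light began with the culture, so length of exposure and stage cannot be told apart. Of the genes higher at SIM 8D, 48.9% were also higher at SIM 4D, which is 86% of the genes higher there, and 25.7% were higher at CIM 4D (79.9% of those). Among lower genes the shared part was 22.6% of the SIM 8D list and 59.7% of the SIM 4D list, and 1722 of the 2416 passed at SIM 8D alone of the 3 stages. Passing at 1 stage does not show a difference, which was tested directly. The light effect at SIM 8D differed from that at SIM 4D for 301 genes upward and 280 downward, together 2.79% of those tested. These counts depended on single libraries, with 196 upward without low light replicate 2, 195 without high light replicate 3 and 184 downward without high light replicate 3. Against CIM 4D the effect differed for 1456 genes upward and 762 downward (10.6%).

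**Figure D4:**
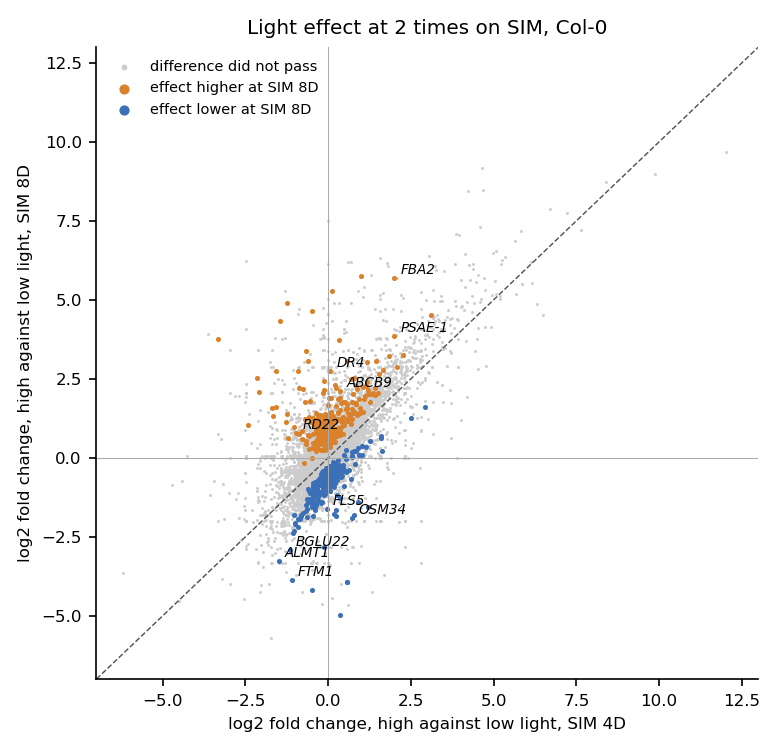
Each point is a gene at its log2 fold change in high against low light in Col-0 after 4 days on SIM (x axis) and after 8 days on SIM (y axis), with the dashed line at equality. Coloured points passed the test of the difference, 301 above and 280 below the line, and the named genes are the 5 largest differences in each direction under the naming rule.

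Among 23 xylem genes tested, 13 had a higher light effect at 8 than at 4 days on SIM and none a lower one, where 2.79% of all genes differed in either direction. XCP1 had a log2 fold change of 0.05 at SIM 4D (adjusted p = 0.872) and 1.1 at SIM 8D, a difference of 1.05 (SE 0.17, adjusted p = 4.61e-04). VND7 differed by 1.11 (SE 0.21, adjusted p = 2.15e-03) and XCP2 by 1.08 (adjusted p = 2.02e-03). Low oxygen genes differed downward at 6 of 17, among them PDC1 by -1.24 (SE 0.19, adjusted p = 1.48e-04), although 9 of the 17 had already fallen at SIM 4D. Auxin response genes differed downward at 5 of 18 and upward at 1. GH3.2 had fallen by 1.06 on the log2 scale at SIM 4D and differed by -1.30 (SE 0.25, adjusted p = 3.03e-03). Of 13 sulfur genes 4 differed downward, with APR1 at -0.49 (adjusted p = 0.0108).

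**Figure D5:**
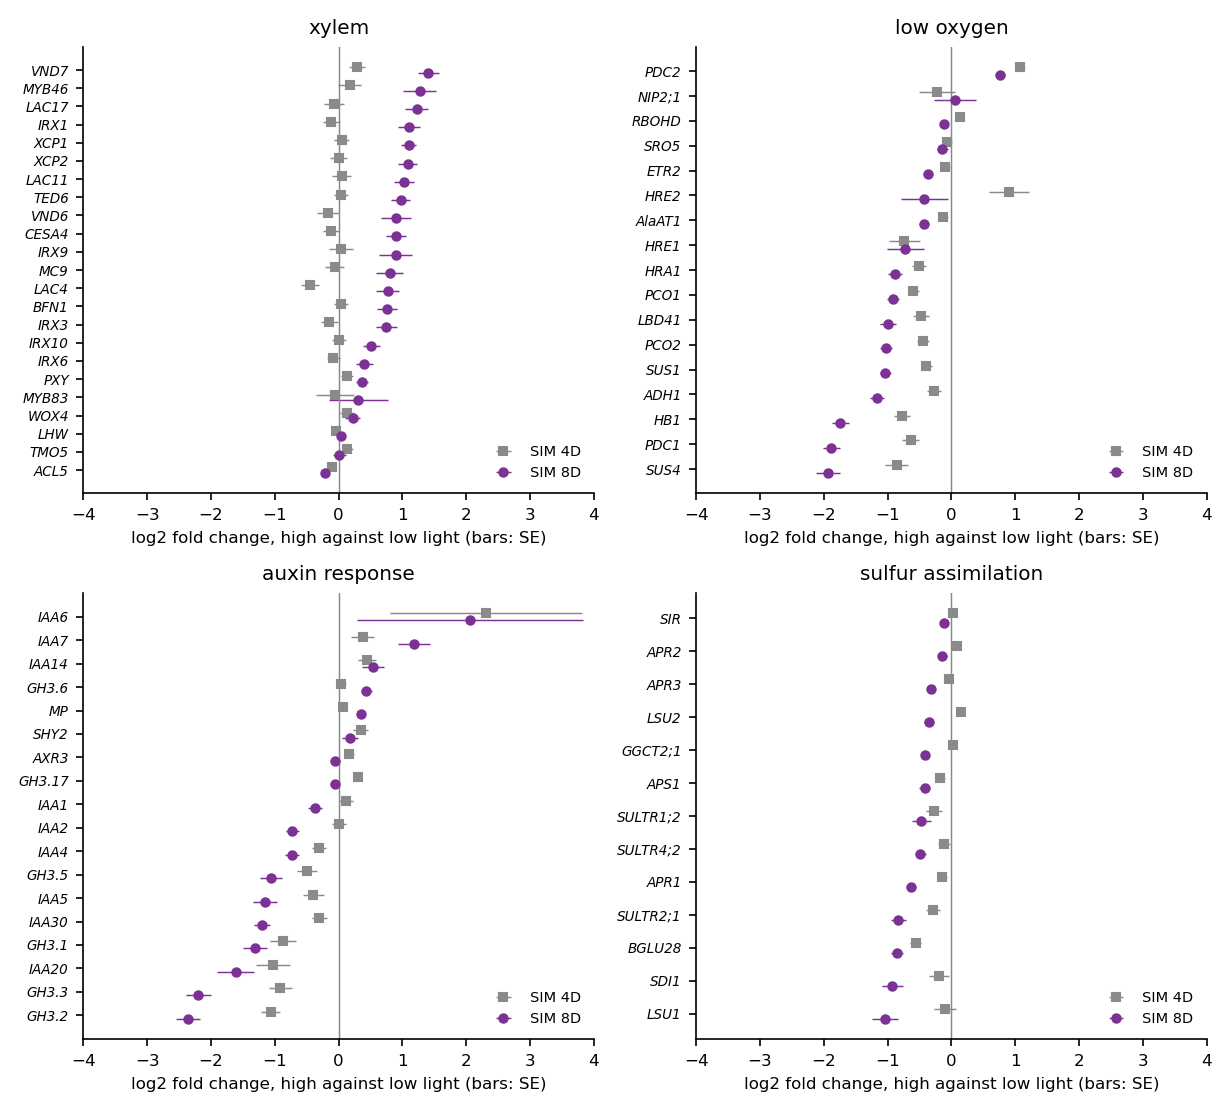
Log2 fold change in high against low light in Col-0 (x axis, bars are SE) for every tested member of 4 lists, at SIM 4D (grey squares) and SIM 8D (purple circles). Xylem members lie around 0 at SIM 4D and 18 of 23 rose at SIM 8D. Low oxygen members such as PDC1 lie farther below 0 at SIM 8D than at SIM 4D.

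In the photosynthesis lists the light effect was also larger at 8 than at 4 days on SIM by median, by 1.12 for antenna genes, 0.968 for photosystem I, 0.715 for photosystem II and 0.729 for the Calvin cycle, where the xylem median was 0.89. Of these photosynthesis members LHCA5, LHCB3, PSAE-1 and FBA2 passed the test of the difference and the others did not. FBA2, a plastid aldolase, had log2 fold changes of 2.00 at SIM 4D and 5.68 at SIM 8D (difference 3.68, SE 0.80, adjusted p = 0.0108), and PSAE-1 of 2.00 and 3.86 (1.86, SE 0.40, adjusted p = 8.82e-03). Against CIM 4D the difference passed upward at 16 of 20 antenna genes, 10 of 12 photosystem I genes, 13 of 20 Calvin cycle genes and 18 of 27 chlorophyll synthesis genes. Among 19 flavonoid enzyme genes tested, the difference from SIM 4D passed upward at 0 and downward at 1, C4H (median -0.106). Against CIM 4D it passed upward at 5, drawn from a set that included CHIL and TT5, and downward at 1 (median 0.776). TT4 had log2 fold changes of 8.35, 7.20 and 7.75 at CIM 4D, SIM 4D and SIM 8D, and neither difference from SIM 8D passed (adjusted p = 0.876 and 0.8). WUS and STM passed neither difference, whereas CLV1, the receptor kinase that limits the meristem, had -0.07 at SIM 4D and 0.94 at SIM 8D (difference 1.02, adjusted p = 2.96e-03), and PDF1 differed by 4.66 (SE 0.97, adjusted p = 8.45e-03). For CLV1 the difference from CIM 4D did not pass. DR4, a protease inhibitor that drought represses, measured 5.93, 9.96 and 9.57 CPM in low light and 61.7, 52.6 and 58.7 CPM in high light at SIM 8D and had a light effect of 0.06 at SIM 4D (difference 2.67, SE 0.37, adjusted p = 1.85e-04).

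Primary transcripts of 3 microRNA genes differed between the lights together with known targets, and these genes were chosen after their values were seen. Their mature sequences in RefSeq's annotation of TAIR10.1 are shown with the seed, bases 2 to 8, in capitals, from chr1:24884359-24884382 on the plus strand for miR163, chr5:4694778-4694798 on the plus strand for miR398c-3p and chr5:16660469-16660489 on the minus strand for miR319b. The 3 seeds differ.
miR163: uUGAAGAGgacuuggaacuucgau
miR398c-3p: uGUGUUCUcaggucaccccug
miR319b: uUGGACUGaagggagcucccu
The best ungapped stretch was then read in the transcript of 1 target of each. Bases that match the exact complement of the microRNA are in capitals. All others, pairs of G with U included, are in lower case. The stretch lies in the coding part for PXMT1 (chr1:24874307-24874330, minus strand), outside it for CSD1 (chr1:2827177-2827685, plus strand, across an intron) and in the coding part for TCP10 (chr2:13221210-13221230, minus strand).
PXMT1 site: catcgAGTTCCAAGTCCTCTTCAA
CSD1 site: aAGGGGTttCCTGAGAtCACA
TCP10 site: AaGGgGtaCCCTTCAGTCCAg
With pairs of G with U counted as mismatches, these stretches hold 5, 4 and 5 mismatches, and 0.0241%, 0.0289% and 0.183% of 20757 transcripts hold one as good. Other genes named or counted here as targets are so from earlier knowledge of these families. Their best ungapped stretches matched less well in part, with 8 mismatches for CSD2 (37.7% of transcripts as good), 6 for CCS and 6 for TCP3 and TCP4 (1.32%).

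MIR163 measured 0.363, 0.395 and 0.346 CPM in low light, against 7.65, 7.05 and 10.3 CPM in high light and 0.178, 0 and 0.294 CPM in hy5-2 (4.45 between the Col-0 lights, SE 0.36, adjusted p = 8.33e-12). Its target PXMT1 (AT1G66700), a methyltransferase, measured 3.87, 8.22 and 6.46 against 0.728, 1.69 and 1.04 CPM and stood at 11.3, 12 and 5.88 CPM in hy5-2 (-2.43, SE 0.78, adjusted p = 0.0219), which did not pass without low light replicate 2 (-2.13, adjusted p = 0.104), high light replicate 1 (-2.21, adjusted p = 0.0757) or high light replicate 3 (-2.34, adjusted p = 0.0715). In each high-light library of Col-0, MIR163 was above and PXMT1 below its level in each low-light library. MIR398c, whose locus overlaps a neighbour, went from 20.7, 19.4 and 27.6 to 89.5, 65.0 and 66.4 CPM (1.71), and the 3 miR398 targets fell: CSD1 from 64.4, 74.6 and 67.7 to 18.0, 26.4 and 25.9 CPM (-1.55, overlapping locus), CSD2 by 1.1 and CCS, their copper chaperone, by 0.73 on the log2 scale. MIR319b fell by 2.3 on the log2 scale from 0.968, 1.42 and 1.38 CPM, and of 5 miR319-targeted TCP genes, which restrain leaf growth, 4 rose. TCP10 measured 0.847, 1.26 and 2.19 against 6.31, 5.36 and 7.69 CPM (2.17, SE 0.29, adjusted p = 3.50e-07), and its light effect at SIM 8D differed from that at SIM 4D by 2.92 (adjusted p = 1.03e-04). Of 8 miR156-targeted SPL genes tested, 2 rose and 6 did not pass. Over all 33 MIR loci tested, 5 rose and 3 fell, where 16.0% of all genes tested rose and 11.6% fell, so MIR loci did not differ more often than genes at large. Mature microRNAs were not measured.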

How the data were processed

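Poly(A) RNA was sequenced from 33 explant samples with a stranded mRNA kit, per the labels' protocols. The authors deposited raw counts per gene locus, made, per the submitters' processing notes, with STAR, SAMtools and bedtools on the TAIR10 genome, and these notes also list edgeR. No source used here gives tool versions, whether counting used strand, or how reads that fit several loci were counted, so overlapping loci (4302 of 33400) and near-identical copies are uncertain. All 77 chloroplast loci had no count, so plastid-encoded genes were not analysed here.

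The 33 libraries were fitted together by group in R 4.3.3 with edgeR 4.0.16 (limma 3.58.1): filterByExpr with a minimum count of 10 and a minimum total of 15, which left 20842 loci, TMM scaling, the robust quasi-likelihood test, and Benjamini-Hochberg adjustment at 0.05 over all loci tested. The common biological coefficient of variation was 0.0745. The SIM 8D light contrast, and its differences from the SIM 4D and CIM 4D light contrasts, came from this fit, and the light effects at the 3 stages share no library with each other. Of 851 list entries, 840 matched their symbol by locus in the reference table, and the other 11 were left out, which gave 43 lists. The members, lists and named genes were chosen with earlier results of these data known. Named genes were the 15 largest rises and falls with symbols, non-overlapping groups and a mean of at least 5 CPM, up to 4 members per list and direction with the smallest adjusted p, preset key members, and the 5 largest differences of light effects per direction. BCAT4, CYP79F1, PGLP1, TT8, the stomatal genes, the microRNA genes and their targets other than CSD2, and the groups under the closing observations were chosen after their values were seen. Intervals of ratios and shares are exact, at 95%, and cover counting error only. In simulated counts for the SIM 8D contrast over 20842 genes, 37 of 50 genes raised 1.5-fold, 47 of 50 raised 2-fold, 44 of 50 lowered to 0.5-fold and 50 of 50 raised 4-fold were recovered, and 6.81% of calls were false. Every other gene had the same mean in all libraries, and the changed genes were drawn from those above a minimum mean level. Spread followed only its trend with level, without a gene's own spread or a replicate effect. These rates therefore need not hold for the real contrast. Alternatives were RLE scaling, library totals alone, no filter and a stricter filter, DESeq2 1.42.0, the 6 libraries alone, a replicate block, leaving out each library, and a shorter promoter window.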

Additional observations from a re-analysis of the deposited data

Results flagged for a closer look

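The results below are genes whose light effect at SIM 8D differed from that at an earlier stage when the difference itself was tested (edgeR's interaction contrast, Benjamini-Hochberg adjusted over all genes). Values are log2 light effect at SIM 8D minus that at the earlier stage, and the 2 effects share no library.

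Against SIM 4D, the effect was higher at SIM 8D for FBA2, a plastid aldolase, by 3.68 and for DR4, a protease inhibitor, by 2.675. It was higher for PSAE-1 of photosystem I by 1.86, for the transporter ABCB9 by 1.75 and for RD22, a gene of drought responses, by 1.75, although RD22 itself did not pass at SIM 8D (0.79, adjusted p = 0.119). It was lower at SIM 8D for the desaturase gene FTM1, at -2.78, for the osmotin-like gene OSM34, at -2.635, for the malate exporter gene ALMT1, at -1.77, for the glucosidase gene BGLU22, at -1.74, and for FLS5, of the flavonol synthase family, at -1.59.

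Against CIM 4D, the effect was higher at SIM 8D for MES16 by 3.47, for FBA2 by 3.27, for ENH1 by 2.99, for NPQ4 by 2.895 and for DR4 by 2.83. It was lower for BBM, at -3.63, for JP630, at -3.33, for LBD19, a lateral organ boundaries factor, at -3.065, for ALMT1, at -2.81, and for GH3.2, at -2.55. ALMT1 thus fell by 0.45, 1.49 and 3.26 on the log2 scale at CIM 4D, SIM 4D and SIM 8D. The differences of RD22, BBM, JP630, LBD19 and the second of FBA2 were lost in at least 1 alternative, and JP630 and LBD19 had 2 counts each over the high-light libraries at SIM 8D. The cause was not tested.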

How the results depend on the processing

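Of 423 single results (genes and differences), 368 passed the threshold, and 300 of these did so under all of 14 alternatives to the fit that could give a value; none reversed. Fitting the 6 SIM 8D libraries alone gave 2660 genes higher and 1467 lower, with 18571 loci tested and fewer libraries behind the spread. RLE scaling gave 3216 and 2600, library totals alone 3567 and 1985 (64.2% of calls higher against 58.0%), no filter 3260 and 1964, the stricter filter 3332 and 2418, and DESeq2 3101 and 2465. No scaling moved the median of all genes by more than 0.1. Leaving out 1 library at a time gave 2887 to 3316 genes higher and 1824 to 2304 lower, 195 to 340 higher and 184 to 311 lower for the difference from SIM 4D, 1197 to 1609 and 584 to 864 for that from CIM 4D, and 299 to 321 and 103 to 120 list members. Samples with the same replicate number deviated together weakly (r = 0.136, 0.0486 and 0.205 for numbers 1, 2 and 3), each correlating best with its own number. The labels do not say that these numbers pair samples, so the main fit held no replicate block. Fits with such a block gave more calls than the same fits without it. With the replicate block in the fit of all libraries, 3616 genes were higher and 2920 lower, the difference from SIM 4D was higher for 483 and lower for 447 genes, and that from CIM 4D for 1803 and 1069. With the replicate block in the 6 libraries alone, 2980 were higher and 1945 lower. In promoters shortened to 100 bases, the G-box stood in 5.32% of promoters of genes that rose at least 2-fold, 3.55% of those that fell and 4.05% of all, the I-box in 8.21%, 4.57% and 5.16%, and the evening element in 1.41%, 1.27% and 1.01%, fewer because the window is shorter. With 3 libraries a group, genes of 1 to 3 counts give ratios with wide intervals only.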

Other observations

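Groups of genes that were chosen after their values were seen also differed at SIM 8D. Of 17 resistance genes of the NLR class, which encode intracellular immune receptors, 10 rose and none fell. At SIM 4D 11 of them were higher in high light, RPM1 among them (0.84, adjusted p = 2.93e-03), where 9.09% of all genes tested were. SNC1 measured 19.2, 23.8 and 20.6 CPM in low light, against 114, 122 and 131 CPM in high light and 40.5, 35 and 35.1 CPM in hy5-2 (log2 fold change 2.51, SE 0.12, adjusted p = 9.03e-17). RPP13 and RPP5 rose by 2.12 and 2.35, and RPP8, whose locus overlaps a neighbour, by 4.46, whereas RPM1, at 5.32, 5.93 and 7.61 against 7.65, 5.96 and 7.58 CPM, and RPS2 and RPS4 did not pass. These genes have near-identical relatives whose reads may have been divided among them. Of 5 copper transport and regulation genes tested, 2 rose and 3 did not pass, too few to set against the 16.0% of all genes tested that rose. COPT6, a copper transporter, had 1 count in low light and 84 in high light, a ratio of 89 (95% exact interval 15.5 to 3550), the iron superoxide dismutase gene FSD1 rose by 0.93 and SPL7, the regulator of copper responses, measured 67.9, 64.3 and 66.4 against 73.7, 70.2 and 70.4 CPM and did not pass.

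All 7 chloroplast movement genes tested rose, and 5 of them were higher at SIM 4D. PMI1 had 3 counts in low light and 273 in high light, a ratio of 96.4 (95% exact interval 32.6 to 470), and CHUP1, which anchors chloroplasts to actin, rose by 0.95, while the smallest calls, PHOT2 and WEB1, were lost in some alternatives. Of 18 genes of the plastid transcription complex 16 rose (median 0.84), and 15 were higher at SIM 4D. The calls of PTAC15 (adjusted p = 0.0482) and PTAC4 at SIM 8D were lost in 9 and 2 of 14 alternatives. The largest rise was that of PTAC16, at 0.968, 1.03 and 0.115 against 16.6, 15.5 and 18.5 CPM (4.49, SE 0.47, adjusted p = 3.05e-08). Of 15 tested nuclear genes of the plastid NDH complex, which carries electrons around photosystem I, 13 rose (median 1.99), and 8 were higher at SIM 4D. The calls of NDHN, NDHO, PNSB3 and PNSL5 at SIM 8D were lost in at least 1 alternative. NDHT and NDHU had no count in low light and 22 each in high light. PNSB2 measured 0.242, 0 and 0.346 against 5.22, 5.06 and 8.93 CPM. In hy5-2, PTAC16 stood at 0.533, 0.546 and 0.294 CPM and PNSB2 at 0.978, 0.764 and 0.392 CPM.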
